A study of Homo sapiens with 8 samples.

Results

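The APOBEC3 genes encode a family of 7 cytidine deaminases, APOBEC3A, APOBEC3B, APOBEC3C, APOBEC3D, APOBEC3F, APOBEC3G and APOBEC3H, which lie side by side on human chromosome 22. All 7 were found by symbol among the 39533 rows of the count table. The 7 genes are the whole family, but the family was picked on earlier results of these same libraries, so the members' values below are a description and carry no test of their own. The RNA came from HCT116, a human colorectal cancer cell line, in a tumour self-seeding model: tumour self-seeded cells (TSC, 3 libraries) and circulating tumour cells (CTC, 2 libraries) were set against primary tumour cells (PC, 3 libraries). Blood was the source of CTC, and the primary tumour that of TSC and PC. The series title speaks of liver cancer while the sample labels name the colorectal line, and no treatment, genotype or age is given for any group. Which animal hosted the tumours is not stated. All groups share the 1 cell line, and nothing says that the libraries of a group came from separate animals or cultures, so the spread between them may be technical.

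APOBEC3 enzymes remove the amino group from cytosine in single-stranded DNA, which leaves uracil. They restrict retroviruses and retroelements, and APOBEC3A and APOBEC3B are known for the C-to-T and C-to-G mutations they leave in tumour genomes. Several members are induced by interferon, and APOBEC3B is also known as a target of the DREAM and B-MYB cell cycle regulators and of NF-κB. Each enzyme holds 1 or 2 zinc-binding deaminase sites, in which a histidine and 2 cysteines hold the zinc ion and a glutamate takes part in catalysis.

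Total counts were 4578869 to 14717833 in the TSC libraries, 957607 and 10524069 in CTC libraries 1 and 2, and 10864761 to 19264595 in the PC libraries. A count of 3 was worth 2.99 CPM (counts divided by the TMM-scaled library size, so that libraries of unequal depth compare) in CTC library 1 and 0.156 to 0.668 CPM in the other 7. Summed CPM of 8 epithelial tumour markers, all detected in every library, were 8120 to 9342 in TSC, 5199 and 7735 in CTC and 6052 to 8143 in PC. Summed CPM of 6 leukocyte markers were 2.89 to 13.6 in TSC, 163 and 45.2 in CTC and 6.16 to 9.13 in PC, and those of 5 erythroid markers were 0.0904 to 0.494 in TSC, 191 and 247 in CTC and 0.104 to 1.59 in PC. Both CTC libraries therefore held counts of blood cell genes beyond those of the other 6.

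The genes share sequence closely, and the zinc-site coding sequences show where. They are printed 5′ to 3′ on the coding strand from GENCODE transcripts (GRCh38), with the codons of the histidine, the glutamate and both cysteines in capitals. The last site of each of 5 members is given because its likeness bears on how reads could be told apart.
APOBEC3A, only site: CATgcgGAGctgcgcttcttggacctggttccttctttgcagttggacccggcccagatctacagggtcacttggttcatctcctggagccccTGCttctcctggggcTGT
APOBEC3B, last site: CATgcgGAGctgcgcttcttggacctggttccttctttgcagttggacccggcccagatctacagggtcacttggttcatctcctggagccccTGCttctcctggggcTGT
APOBEC3G, last site: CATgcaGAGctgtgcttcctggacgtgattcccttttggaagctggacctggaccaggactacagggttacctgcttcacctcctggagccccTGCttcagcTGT
APOBEC3C, only site: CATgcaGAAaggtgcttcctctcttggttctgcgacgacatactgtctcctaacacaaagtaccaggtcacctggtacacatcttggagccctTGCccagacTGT
APOBEC3F, last site: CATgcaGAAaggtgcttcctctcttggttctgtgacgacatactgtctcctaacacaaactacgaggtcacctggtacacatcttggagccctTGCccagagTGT
Only the last or only sites were aligned. The APOBEC3A site and the last APOBEC3B site matched at 111 of 111 bases, and the last APOBEC3D and APOBEC3F sites at 105 of 105. The first sites of APOBEC3B and APOBEC3F, not printed here, are also the same 105 bases. APOBEC3C matched the last APOBEC3F site at 101 of 105 bases, and APOBEC3A matched the last APOBEC3G site at 86 of 105. Over whole transcripts, 27.8% of the 75-base windows of APOBEC3B occurred unchanged in another member, against 17.2% for APOBEC3A, 17.8% for APOBEC3F, 14.7% for APOBEC3G, 11.5% for APOBEC3D and 0.255% for APOBEC3C. APOBEC3H shared none. How reads with several positions were treated is not stated, so counts of the members other than APOBEC3C and APOBEC3H are uncertain to that extent. APOBEC3B also overlaps its antisense gene APOBEC3B-AS1 over 211 exonic bases, and the strand setting is not given; APOBEC3B-AS1 was listed at 0 in all 8 libraries.

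APOBEC3B, a nuclear member with 2 deaminase sites (chr22:38982347-38992779, plus strand), was the member that stood higher in both self-seeded and circulating cells. Its counts were 80, 155 and 256 in TSC libraries 1 to 3, 9 and 207 in CTC libraries 1 and 2, and 83, 34 and 82 in PC libraries 1 to 3. In CPM these were 17.8, 10.9 and 23.2 in TSC, 8.98 and 19.7 in CTC and 6.95, 3.13 and 4.26 in PC. Every TSC and CTC library lay above every PC library, and the TSC and CTC libraries overlapped. The share of all tested genes whose libraries separate in this way was not computed. Such separations are therefore only described, here and for the other members and ratios below.

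Means were 17.3 ± 6.12 CPM in TSC (SD, n = 3), 14.4 ± 7.61 CPM in CTC (SD, n = 2) and 4.78 ± 1.97 CPM in PC (SD, n = 3). The fitted log2 fold change was 1.85 ± 0.38 (SE) for TSC against PC, a 3.61-fold higher level, and 1.73 ± 0.43 for CTC against PC, a 3.31-fold higher level. For TSC against CTC it was 0.12 ± 0.43. The first and second of these comparisons share the PC libraries. In CTC library 1 the value rests on 9 counts, with a 95% Poisson interval of 4.10 to 17.0 CPM. Its lower limit lies below the values of PC libraries 1 and 3, so counting error alone does not set this library apart from PC.

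**Figure D1:**
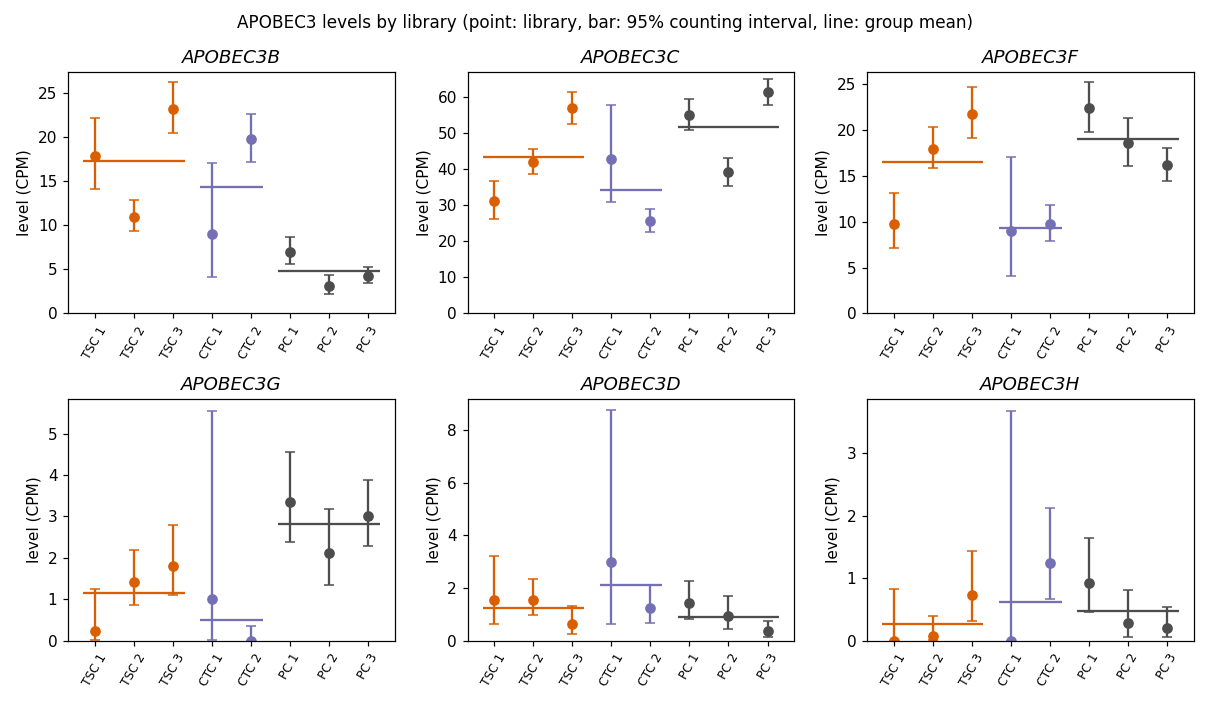
Level of the 6 detected APOBEC3 genes in each library, in CPM on linear axes that differ between panels; points are libraries, bars are 95% Poisson counting intervals and lines are group means, for TSC, CTC and PC from left to right. The 5 TSC and CTC points of APOBEC3B, from 8.98 to 23.2 CPM, all lie above the 3 PC points, of which the highest is 6.95 CPM. The interval of CTC library 1 reaches down to 4.10 CPM, below the points of PC libraries 1 and 3.

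APOBEC3C, a member with 1 deaminase site (chr22:39014257-39020352, plus strand), had the highest counts of the family. It had 31.2, 42.0 and 56.9 CPM in TSC, 42.9 and 25.7 CPM in CTC and 55.0, 39.1 and 61.3 CPM in PC. The groups overlapped in all 3 comparisons. The log2 fold changes were −0.25 ± 0.25 for TSC against PC, −0.70 ± 0.31 for CTC against PC and 0.45 ± 0.31 for TSC against CTC.

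APOBEC3F, a 2-site member that restricts retroviruses (chr22:39040864-39055972, plus strand), had 9.80, 18.0 and 21.8 CPM in TSC, 8.98 and 9.73 CPM in CTC and 22.5, 18.6 and 16.2 CPM in PC. Both CTC libraries lay below every TSC and every PC library, while TSC and PC overlapped. CTC library 1 held 9 counts, and its 95% interval of 4.10 to 17.0 CPM covers the values of TSC library 1 and PC library 3. CTC library 2 at 9.73 CPM lies within the interval of TSC library 1, 7.12 to 13.2 CPM. The log2 fold changes were −0.18 ± 0.28 for TSC against PC, −1.0 ± 0.37 for CTC against PC and 0.82 ± 0.37 for TSC against CTC.

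APOBEC3G, a 2-site member best known for restricting HIV (chr22:39077005-39087743, plus strand), was not called in any comparison. Its counts were 1, 20 and 20 in TSC, 1 and 0 in CTC and 40, 23 and 58 in PC. In CPM these were 0.223, 1.41 and 1.81 in TSC, 0.997 and 0 in CTC, and 3.35, 2.12 and 3.01 in PC. All TSC and CTC libraries lay below all PC libraries, but the 95% interval of CTC library 1 reached 5.56 CPM, above every PC value. The log2 fold change for TSC against PC was −1.20 ± 0.82. With 1 count over both CTC libraries, the ratio of pooled CPM was 0.0303 for CTC against PC, with a 95% counting interval of 0.00076 to 0.172, and 15.9 for TSC against CTC, with an interval of 2.69 to 641. These ratios rest on CTC library 2, which held 0 counts: CTC library 1 alone gave 0.346 against PC, with an interval of 0.00869 to 1.97, and TSC against CTC library 1 alone gave 1.39, with an interval of 0.235 to 56.1. For CTC library 2 alone against PC the upper limit was 0.124. APOBEC3G is abundant in T and NK cells. Summed CPM of 9 markers of those cells were 0 to 1.48 in TSC, 0 and 1.43 in CTC and 0 to 0.184 in PC. CD2, CD3E, CD3G, NKG7 and GZMB were at 0 in all 8 libraries. CD3D held 7 counts and CD247 held 8 in CTC library 2, and CD247 held 2 in PC library 3. IL2RB held 21 counts in TSC library 2, and GNLY held 2 in PC library 2.

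APOBEC3D, a 2-site member (chr22:39021127-39033277, plus strand), had 7, 22 and 7 counts in TSC, 3 and 13 in CTC and 17, 10 and 7 in PC. APOBEC3H, a 1-site member (chr22:39097244-39104067, plus strand), had 0, 1 and 8 counts in TSC, 0 and 13 in CTC and 11, 3 and 4 in PC. The groups overlapped for both genes in all comparisons, and differences lay within the spread between libraries: log2 fold changes of APOBEC3D were 0.47 ± 0.87 for TSC against PC and 1.02 ± 1.06 for CTC against PC, and those of APOBEC3H were −0.63 ± 1.28 and 0.95 ± 1.39. The APOBEC3H values rest on single libraries: the fitted TSC against PC value was −2.93 without TSC library 3, and the CTC against PC value turned to −5.30 without CTC library 2, which leaves CTC with 0 counts and a value that depends on the prior count. APOBEC3A (chr22:38957609-38963184, plus strand) was listed at 0 in all 8 libraries. Its 95% upper limit was 0.192 to 0.822 CPM in 7 libraries and 3.68 CPM in CTC library 1. The table also listed the relatives APOBEC1 and APOBEC4 at 0 in all 8 libraries, and APOBEC2 held 1 count, in TSC library 3.

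Fitted over all 14255 genes that passed the filter on low counts, 6 members were tested. An edgeR quasi-likelihood test with Benjamini-Hochberg adjustment over all these genes, at an adjusted p under 0.05, called 1 of the 6 members, APOBEC3B, as higher in TSC than in PC, where 0.224% of all genes were called higher and 0.281% lower. It called 1 of 6, again APOBEC3B, as higher in CTC than in PC, where 1.4% of all genes were called higher and 2.52% lower. For TSC against CTC it called 0 of 6, where 0.372% were called higher and 0.526% lower; 1 member had an unadjusted p under 0.05, and DESeq2 and limma-voom each called 0. These contrasts served to choose the family, so nothing is read from the counts. The shares rest on totals that single libraries move: 72 genes called for TSC against PC became 10 without PC library 2, 559 for CTC against PC became 35 without CTC library 2, and 128 for TSC against CTC became 36 without TSC library 3. The TSC call was lost without TSC library 1 (log2 fold change 1.81), TSC library 3 (1.56), PC library 1 (2.19), PC library 2 (1.62) or PC library 3 (1.76). The CTC call of APOBEC3B was lost without TSC library 3 (1.72), CTC library 2 (0.90), PC library 2 (1.51) or PC library 3 (1.66).

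A ratio of 2 genes' counts within a library does not depend on how libraries are scaled. APOBEC3B counts per APOBEC3C count were 0.571, 0.261 and 0.407 in TSC, 0.209 and 0.770 in CTC and 0.126, 0.0800 and 0.0694 in PC. All 5 TSC and CTC ratios exceeded all 3 PC ratios, although the 95% interval in CTC library 1, 0.0897 to 0.435, overlapped those of PC. These ratios reuse the APOBEC3B counts given above, so they are not separate support. Their denominator, APOBEC3C, had log2 fold changes of −0.25 ± 0.25 for TSC against PC and −0.70 ± 0.31 for CTC against PC. APOBEC3F counts per APOBEC3C count were 0.314, 0.429 and 0.383 in TSC, 0.209 and 0.379 in CTC and 0.408, 0.475 and 0.264 in PC, and the groups overlapped.

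Divided by transcript length, levels can be set against each other between genes. In PC the order was APOBEC3C at 18.4 ± 4.07 CPM per kb, APOBEC3F at 7.08 ± 1.17, APOBEC3B at 3.12 ± 1.28 and APOBEC3G at 1.54 ± 0.348 (SD, n = 3), and no neighbours in this order overlapped between libraries when 1 transcript per gene gave the length. With the exons of all transcripts joined, a length added after the data were seen, APOBEC3B was 1.65 CPM per kb in PC library 2 and APOBEC3G 1.83 in PC library 1, so these neighbours overlapped. In TSC it was APOBEC3C at 15.4 ± 4.58, APOBEC3B at 11.3 ± 3.99, APOBEC3F at 6.14 ± 2.27 and APOBEC3G at 0.626 ± 0.45 CPM per kb (SD, n = 3), and APOBEC3B overlapped both APOBEC3C and APOBEC3F. In CTC it was APOBEC3C at 12.2 ± 4.32, APOBEC3B at 9.37 ± 4.97 and APOBEC3F at 3.47 ± 0.197 CPM per kb (SD, n = 2), and APOBEC3C and APOBEC3B overlapped. In CTC library 2, APOBEC3B at 12.9 CPM per kb was above APOBEC3C at 9.10, and it was 10.4 on the joined exons. In TSC library 1, APOBEC3B was 11.6 CPM per kb and APOBEC3C 11.1, and the order turned on the joined exons, where APOBEC3B was 9.40. APOBEC3B made up 23.6 to 42.9% of the family's summed CPM per kb in TSC, 22.4 and 47.1% in CTC and 8.29 to 12.7% in PC. On the joined exons these shares were 20.6 to 38.5%, 19.2 and 42.9%, and 7.05 to 10.9%, in the same order.

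**Figure D2:**
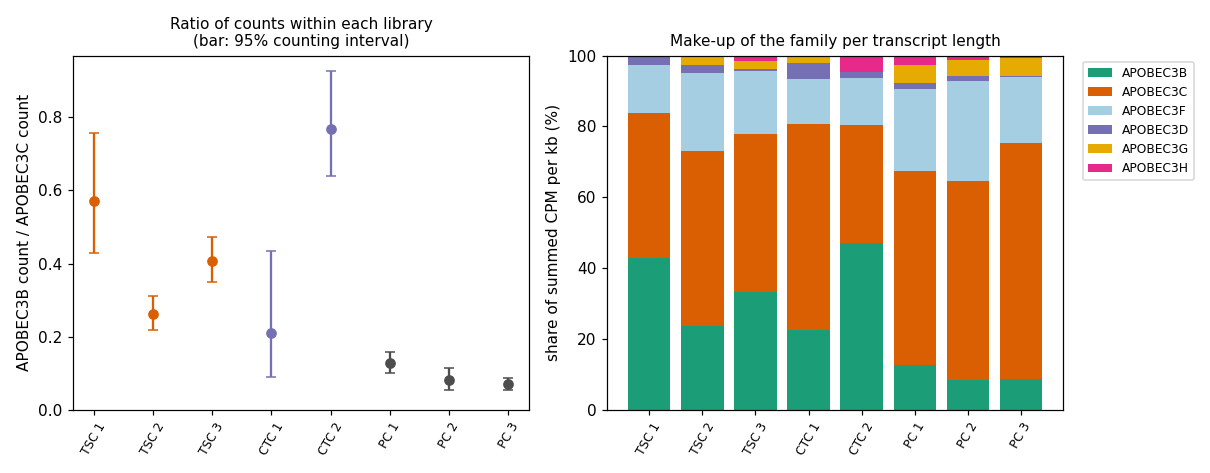
Left, APOBEC3B counts divided by APOBEC3C counts in each library, with 95% counting intervals; right, the share of each gene in the family's summed CPM per kb, in percent, with libraries of TSC, CTC and PC from left to right. The APOBEC3B share lies between 22.4 and 47.1% in the TSC and CTC libraries and between 8.29 and 12.7% in the PC libraries.

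The genes on both sides of the cluster were set beside the members. Of 13 neighbours on chromosome 22, 12 were tested, and the edgeR test called 0 in each comparison. Unadjusted p was under 0.05 for 2 of them in TSC against PC, 2 in CTC against PC and 1 in TSC against CTC, and DESeq2 and limma-voom called 0 in each. Their median log2 fold change was −0.06 for TSC against PC and −0.35 for CTC against PC, beside medians of 0.01 and −0.04 over all genes. CBX6, a Polycomb gene on the APOBEC3A side, had a log2 fold change of 0.04 ± 0.18 for TSC against PC and −0.34 ± 0.21 for CTC against PC. NPTXR, a neuronal pentraxin receptor gene, had −0.04 ± 0.26 and −0.82 ± 0.32 in the same order of comparisons. PDGFB, a growth factor gene on the APOBEC3H side, had −0.84 ± 0.47 and −1.35 ± 0.61, and TAB1, a TAK1-binding protein gene, had −0.64 ± 0.26 and −0.61 ± 0.32.

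**Figure D3:**
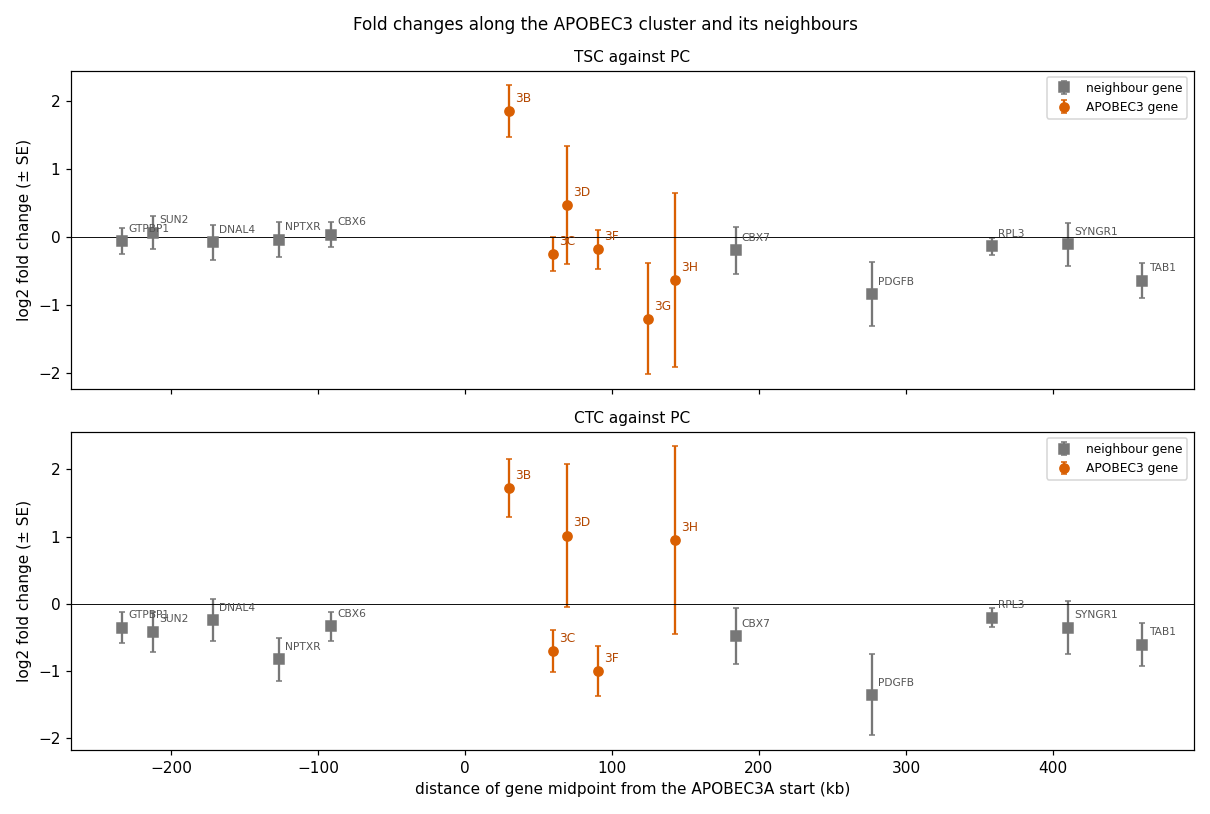
Fitted log2 fold change ± SE against the distance of each gene's midpoint from the start of APOBEC3A, in kb, for TSC against PC (top) and CTC against PC (bottom); circles are APOBEC3 genes and squares are neighbours (the tested neighbours JOSD1 and TOMM22 lie outside the stretch drawn), and APOBEC3G is left out of the bottom panel because CTC held 1 count of it. APOBEC3B stands at 1.85 in the top panel and 1.73 in the bottom one.

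Of 49 listed interferon response genes, none of them an APOBEC3 gene, 45 were tested, and 12 fell, 0 rose and 33 did not pass the test in TSC against PC, with a median log2 fold change of −1.02 beside 0.01 over all genes. IFI6, an interferon-induced mitochondrial protein gene, had 84.4 ± 28.5 CPM in TSC and 470 ± 95.5 CPM in PC (SD, n = 3 each), and IFIT1, which binds viral RNA, had 13.2 ± 0.652 and 77.0 ± 20.7 CPM in TSC and PC. Their log2 fold changes were −2.47 ± 0.23 (edgeR adjusted p = 0.00048) and −2.53 ± 0.26 (edgeR adjusted p = 0.000557). OAS1 and PARP9 had log2 fold changes of −1.87 ± 0.29 and −1.24 ± 0.19. Of all genes, 0.281% were called lower in TSC against PC, 2.52% in CTC against PC and 0.526% in TSC against CTC. In CTC against PC 5 interferon response genes fell and 0 rose by edgeR, with a median of −0.46 beside −0.04 over all genes. For this comparison DESeq2 called 5 genes of the list lower and 1 higher, and limma-voom called 7 lower and 0 higher. In TSC against CTC 2 interferon response genes fell by edgeR (IFIT1 and IFI6) and 0 rose, with a median of −0.60 beside 0.06. The TSC against PC count was 2 without TSC library 3, 5 without PC library 1 and 2 without PC library 2. The CTC against PC count was 8 without TSC library 1, 1 without TSC library 3 or PC library 3, and 0 without CTC library 1, CTC library 2, PC library 1 or PC library 2. For TSC against CTC it was 6 without TSC library 1, 4 without TSC library 2, and 1 without TSC library 3 or CTC library 2.

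All 16 listed genes of uracil base excision repair, which act on the uracil left by deamination, were tested. In CTC against PC 1 of 16 was called lower, and in TSC against CTC 1 of 16 higher, both PARP2, beside the shares of 2.52% and 0.372% of all genes; 0 were called in TSC against PC, where 2 had an unadjusted p under 0.05 and DESeq2 and limma-voom each called 1. UNG, the main uracil DNA glycosylase, averaged 151 ± 42.8 CPM in TSC, 104 ± 26.3 CPM in CTC and 134 ± 3.71 CPM in PC (SD, n = 3, 2 and 3). PARP2, a DNA break sensor, averaged 102 ± 11.9 CPM in CTC (SD, n = 2) and 246 ± 41.5 CPM in PC (SD, n = 3), and fell in CTC against PC (log2 fold change −1.25 ± 0.23, edgeR adjusted p = 0.0106), and rose in TSC against CTC (1.28 ± 0.23, edgeR adjusted p = 0.0172). The first call was lost without CTC library 2, and the second without TSC library 3, CTC library 1 or CTC library 2. Of 10 genes of translesion synthesis and abasic site bypass, 0 were called by edgeR, DESeq2 or limma-voom in any comparison, and 2 had an unadjusted p under 0.05 in each.

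Known regulators of APOBEC3B were described in the same way. Of 15 B-MYB and DREAM genes, 0 were called by edgeR in TSC against PC, where 2 had an unadjusted p under 0.05 and DESeq2 and limma-voom each called 1. In CTC against PC 1 of the 15 was called lower, and in TSC against CTC 1 was called higher, beside 2.52% and 0.372% of all genes. DESeq2 called 2 and limma-voom 3 in each of these comparisons. MYBL2, which encodes B-MYB, had 213 ± 42.3 CPM in TSC and 129 ± 14.1 CPM in PC (SD, n = 3 each; log2 fold change 0.72 ± 0.18, edgeR adjusted p = 0.126), and 118 ± 7.63 CPM in CTC (SD, n = 2). Of 13 NF-κB genes, edgeR called 0 in TSC against PC, 1 in CTC against PC and 0 in TSC against CTC. Unadjusted p was under 0.05 for 5, 4 and 3 of them in these comparisons, DESeq2 called 0, 2 and 1, and limma-voom called 2, 2 and 1. The gene that edgeR called in CTC against PC was NFKBIA, called higher, where 1.4% of all genes were called higher. NFKBIA, the inhibitor that NF-κB itself induces, averaged 96.1 ± 3.36 CPM in CTC (SD, n = 2) and 42.1 ± 0.963 CPM in PC (SD, n = 3), and rose in CTC against PC (1.19 ± 0.18, edgeR adjusted p = 0.00404). Leukocyte and erythroid markers were also higher in CTC, and their part in these CTC values was not tested; fewer cells of a type and less RNA per cell cannot be told apart in bulk RNA. Of 13 tested retroelement restriction genes and 7 tested genes of the CUL5 ligase, through which HIV Vif directs APOBEC3 proteins to degradation, 0 were called by edgeR in any comparison. For the restriction genes, 1, 1 and 0 had an unadjusted p under 0.05 in TSC against PC, CTC against PC and TSC against CTC, DESeq2 called 0, 1 and 0, and limma-voom called 1, 1 and 0. For the CUL5 genes 2, 2 and 1 had an unadjusted p under 0.05, and DESeq2 and limma-voom each called 0, 1 and 0.

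**Figure D4:**
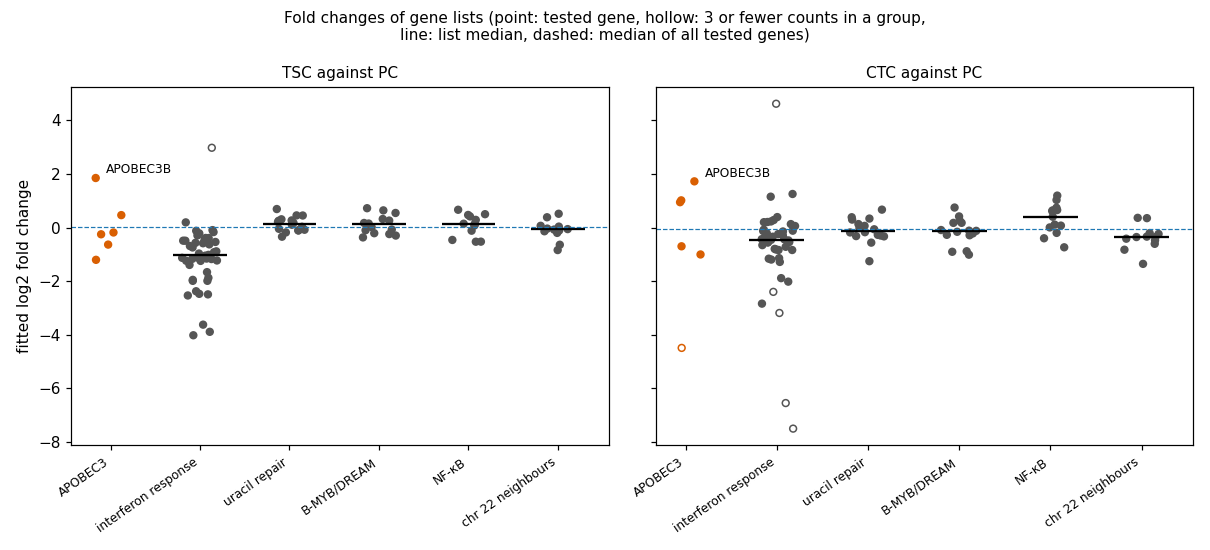
Fitted log2 fold change of each tested gene of 6 lists, for TSC against PC (left) and CTC against PC (right); hollow points have 3 or fewer counts in 1 of the groups, so their fitted values depend on the model's prior count, black lines are list medians and the dashed line is the median of all tested genes. The interferon response median lies at −1.02 on the left and −0.46 on the right.

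The genes most like each abundant member over the 8 libraries were found among 9238 protein-coding genes by the Pearson correlation of log2 CPM, as a description with no test, since all points share library depth and group. For APOBEC3B they were POLR2I (0.98), SUMO3 (0.98) and ITPRIPL1 (0.97), for APOBEC3C EHMT1 (0.98), DCAKD (0.95) and ZNF519 (0.95), and for APOBEC3F FBXO9 (0.97), CDH24 (0.96) and OCEL1 (0.96). How high the best of 9238 correlations over 8 libraries runs by chance was not computed. The correlation also leaves out the size of change: POLR2I ran from 39.7 to 51.5 CPM, and APOBEC3B from 3.13 to 23.2 CPM. Within the family, APOBEC3C and APOBEC3G had r = 0.91 and APOBEC3B and APOBEC3G r = −0.66 over the same 8 libraries, the highest and lowest of all tested pairs. Their Spearman rank correlations were 0.74 and −0.64. APOBEC3G held 1, 1 and 0 counts in TSC library 1, CTC library 1 and CTC library 2, where its log values depend on the 0.5 CPM added before taking logs.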

How the data were processed

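RNA of 8 libraries was measured after ribosomal RNA depletion (labels' protocols). The deposited table holds whole-number counts per gene that the authors did not normalize. Per the submitters' processing notes the tools were STAR 2.5.3a and featureCounts 1.5.3, with build hg38; the annotation, the strand setting and the handling of multiply placed reads are not stated. Groups came from sample titles.

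Counts were fitted with edgeR 4.0.16 (R 4.3.3; filterByExpr, TMM, quasi-likelihood test, all 8 libraries), and p-values were adjusted by Benjamini-Hochberg over 14255 tested genes, at 0.05. CPM use TMM-scaled library sizes. The steps were tested on simulated data. Intervals are 95% Poisson or binomial and cover counting error only. The members and all lists were chosen with earlier results of these data known. Named genes are all 7 members, up to 4 tested genes of each list with the smallest adjusted p, with those of the text taken from these, and the 3 genes most correlated with each of 3 members among those with a mean log2 CPM of at least 3. UNG was singled out after its values were seen. Some genes of the lists are not reported here.

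Transcripts came from GENCODE (GRCh38): per member, a protein-coding transcript with a CCDS and APPRIS principal tag within the RefSeq gene bounds. All 7 members matched RefSeq, whose build is that of the files. Alternatives covered scaling, filters, DESeq2 1.42.0, limma-voom (limma 3.58.1), the groups fitted, a replicate block, thinning by depth, APOBEC3A and APOBEC3B summed, and each library left out; a length from the joined exons of all transcripts was added after the data were seen.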

Additional observations from a re-analysis of the deposited data

How the results depend on the processing

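The APOBEC3B log2 fold change was positive in all 17 alternatives for TSC against PC (1.18 to 2.19) and for CTC against PC (0.90 to 2.08), lowest when libraries were thinned to the shallowest and without CTC library 2. The alternative with APOBEC3A and APOBEC3B summed could only repeat the main value, because APOBEC3A was at 0 in all 8 libraries. Counts of calls were less stable. Called APOBEC3 members for TSC against PC were 0 with the stricter filter or thinning and 0 to 1 with a library left out; for CTC against PC they were 2 with no filter, 0 with thinning and 0 to 2 with a library left out. Called interferon genes for TSC against PC were 20 with no filter, 21 by limma-voom, 7 with thinning and 2 to 14 with a library left out; for CTC against PC 9 with no filter, 3 with the stricter filter and 0 to 8; for TSC against CTC 10 with no filter, 6 by DESeq2, 7 by limma-voom and 1 to 6. Called uracil repair genes for TSC against PC were 1 with no filter, by DESeq2 and by limma-voom, and 0 to 1 with a library left out in each of the 3 comparisons. Called neighbours were 1 with no filter for CTC against PC, and 0 to 1 with a library left out for CTC against PC and TSC against CTC. The causes were not tested.

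Over all genes, calls for TSC against PC were 72, against 355 with no filter, 191 by DESeq2, 553 by limma-voom, 128 with only the 2 groups and 43 with thinning. For CTC against PC they were 559, against 1535, 1125, 1660, 1409 and 281 in the same settings. For TSC against CTC they were 128, against 728, 390, 440, 82 and 54, and 58 with the stricter filter. With a library left out they ranged from 10 to 153 for TSC against PC, 35 to 1575 for CTC against PC and 36 to 696 for TSC against CTC.

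Deviations from group means were correlated between same-numbered libraries (r = −0.17 to 0.10 for TSC and PC, −0.05 and −0.02 for TSC and CTC, 0.03 and 0.04 for CTC and PC). TSC and PC libraries of unlike number gave −0.22 to 0.20. Deviations cancel out within a group, and those of the 2 CTC libraries mirror each other. With so few libraries these values cannot show whether same-numbered libraries were paired. With the replicate block, called members were 0 for TSC against PC and 0 for CTC against PC, called interferon genes were 2 for CTC against PC, and calls over all genes were 261 for CTC against PC and 61 for TSC against CTC. Depth limits APOBEC3D, APOBEC3G and APOBEC3H, and every value of CTC library 1.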
